A study of Homo sapiens with 5 samples.

Results

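The Polycomb complex subunits described here were 10 genes that encode parts of Polycomb repressive complexes 1 and 2. The members were EZH1, EZH2, EED, SUZ12, JARID2, PHF19, BMI1, RNF2, CBX7 and CBX8, taken by symbol from the annotation of the array's probe sets. Of the 10 genes, 7 had a probe set listed for that gene alone, among 19775 such genes on the array. These 7 genes had 18 single-gene probe sets of the 54613 non-control probe sets. BMI1 was covered by 1 probe set that is also listed for the read-through transcript COMMD3-BMI1, and no value was assigned to the gene itself. RNF2 and CBX8 were not analysed here. RNA came from MDA-MB-231, an established human cell line from a breast cancer that looks and grows like mesenchymal cells. The control group was 3 arrays of cells given the vehicle DMSO. The treated group was 2 arrays of cells given 2 uM SAHA (vorinostat), an inhibitor of histone deacetylases, and both groups were collected after 30 h. The comparison asked which transcripts differ in level after SAHA. The labels do not say whether replicates came from separate cultures, and p-values therefore reflect only how far these arrays differ, which may be technical.

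Polycomb repressive complex 2 (PRC2) methylates histone H3 at the lysine known as H3K27. Its catalytic subunit is EZH2 or its paralog EZH1, and neither is active without EED and SUZ12. EED binds the methylated product and SUZ12 is the scaffold on which the accessory proteins assemble. JARID2 and PHF19 are such accessory proteins and help bring PRC2 to chromatin. Polycomb repressive complex 1 (PRC1) ubiquitinates histone H2A through the ring finger protein RNF2 or RING1, paired with a partner such as BMI1. In its canonical form a chromodomain protein such as CBX7 or CBX8 binds methylated H3K27. High EZH2 levels are a known feature of proliferating and poorly differentiated breast tumours.

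The arrays separated by treatment, with Pearson's r across genes of 0.997 to 0.999 for arrays of 1 group and 0.979 to 0.980 for arrays of different groups, where genes do not count as replicates. Array DMSO 1 differed from the rest in the 3' minus 5' signal of the ACTB control probe sets, at 3.29 on the log2 scale against 2.04 to 2.22 on the others. The 24 poly-A spike-in probe sets used were higher on the SAHA arrays by a median of 0.39 (range 0.17 to 0.66) on the log2 scale. Centring on them (poly-A centring) puts the median gene at -0.40 and changes the counts called from 2760 higher and 3089 lower to 1361 and 14548. The markers set for MDA-MB-231 (VIM, CD44, EGFR and FN1) were all above the median gene level of 7.56 (log2 intensity, mean of the DMSO arrays). Of 7 luminal breast markers, 4 were below it (ESR1, PGR, FOXA1 and CDH1), and ERBB2, GATA3 and EPCAM were above it. Of 11 measured leukocyte, fibroblast and endothelial markers, 9 were below it, and COL1A1 and COL1A2 were above it. Over the leukocyte, fibroblast and endothelial lists, the mean log2 level per array was 5.87 to 5.95, 7.97 to 7.99 and 6.02 to 6.16 in DMSO. It was 6.01 to 6.05, 7.91 to 7.92 and 6.37 to 6.39 in SAHA, and the part of such shifts in the results below was not tested.

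PHF19, EZH2, EZH1 and SUZ12, all of PRC2, were lower after SAHA, and PHF19 changed most among the members. None of the members rose by the same test. With limma and a Benjamini-Hochberg adjusted p under 0.05 over all genes (the adjusted p of limma is meant throughout), 4 of 7 members were called lower and 0 higher. Over all 19775 genes the share called was 29.6%, with 15.6% lower and 14% higher. None of the 7 measured members was below the median gene level in DMSO, against 9887 of all genes. The share called among genes of similar level was not computed. The members' median log2 difference (SAHA minus DMSO) was -0.30, against -0.03 over all genes. Both SAHA arrays lay outside the range of the DMSO arrays for 6 of the 7 members, below it for 4 and above it for 2 (JARID2 and CBX7), an arrangement that 48.1% of all genes showed. Leaving out DMSO 3 kept 1 member called lower, while leaving out either DMSO 1 or DMSO 2 kept 2. With only 1 SAHA array, the members' median log2 difference was -0.36 (SAHA 1 left out) or -0.24 (SAHA 2 left out). The share of all genes or probe sets called with 1 array left out is not given here. Such counts, here and for the probe sets and lists below, therefore cannot be compared with a background.

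**Figure D1:**
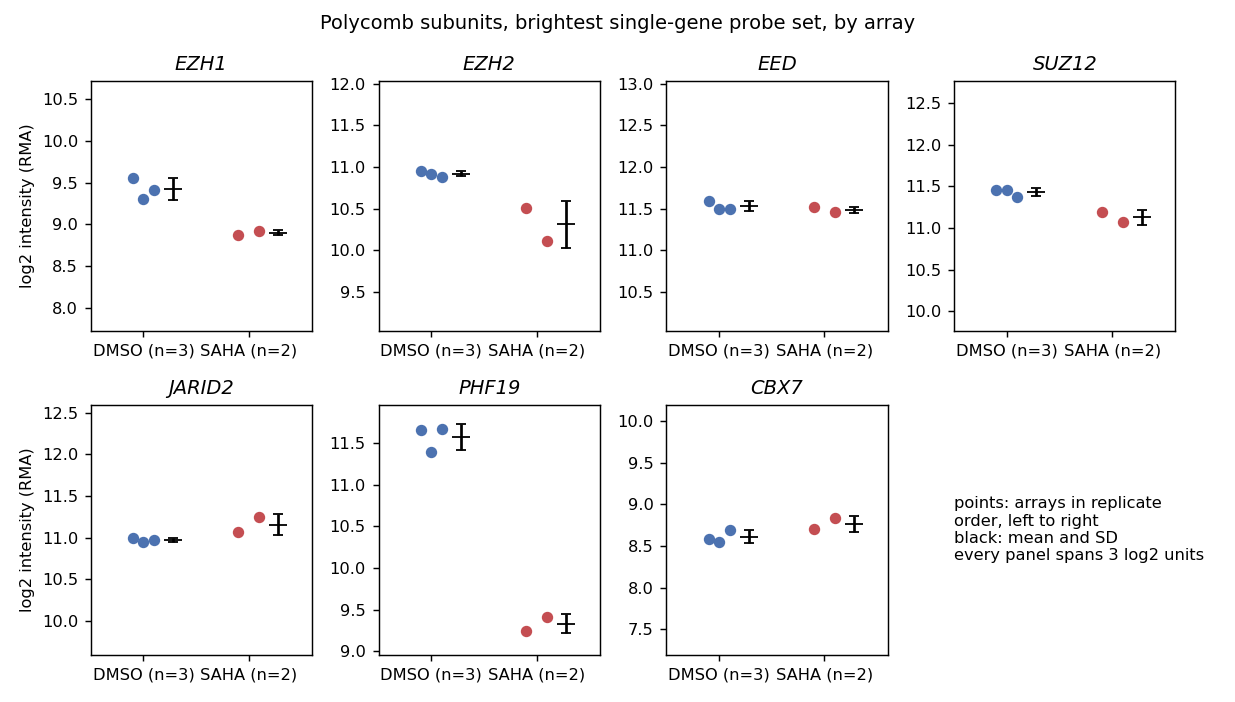
Log2 intensity of the 7 measured subunits on each array (points; blue, 3 DMSO arrays; red, 2 SAHA arrays), with the group mean and SD in black. The vertical axes have the same span but different positions. PHF19 drops from a DMSO mean of 11.57 to a SAHA mean of 9.33, while the groups overlap for EED.

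The regions just upstream of the 4 lowered genes are shown because these members fell together with genes of the cell cycle, many of which are known targets of E2F factors. The windows are the 250 bases before a RefSeq start site (GRCh38.p14), given 5' to 3' in the direction of the gene. Capitals mark matches on either strand to an E2F motif (TTTCCCGC, TTTCGCGC, TTTGCCGC or TTTGGCGC) or to the CCAAT box (CCAAT).
PHF19, chr9:120877189-120877438, minus strand: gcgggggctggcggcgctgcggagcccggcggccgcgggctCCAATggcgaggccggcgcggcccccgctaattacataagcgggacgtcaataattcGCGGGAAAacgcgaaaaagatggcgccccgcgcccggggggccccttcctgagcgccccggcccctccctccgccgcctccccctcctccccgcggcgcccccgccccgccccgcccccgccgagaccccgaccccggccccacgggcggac
EZH2, chr7:148884292-148884541, minus strand: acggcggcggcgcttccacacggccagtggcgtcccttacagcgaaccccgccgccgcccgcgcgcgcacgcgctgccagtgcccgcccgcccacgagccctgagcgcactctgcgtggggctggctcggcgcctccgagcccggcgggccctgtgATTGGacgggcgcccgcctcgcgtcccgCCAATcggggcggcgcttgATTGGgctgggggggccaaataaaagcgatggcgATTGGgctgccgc
EZH1, chr17:42745041-42745290, minus strand: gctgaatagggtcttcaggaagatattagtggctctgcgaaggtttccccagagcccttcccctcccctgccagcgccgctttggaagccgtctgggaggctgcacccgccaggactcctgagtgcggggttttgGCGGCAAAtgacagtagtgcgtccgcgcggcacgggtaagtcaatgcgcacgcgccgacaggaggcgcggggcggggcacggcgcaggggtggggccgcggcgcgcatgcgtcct
SUZ12, chr17:31936757-31937006, plus strand: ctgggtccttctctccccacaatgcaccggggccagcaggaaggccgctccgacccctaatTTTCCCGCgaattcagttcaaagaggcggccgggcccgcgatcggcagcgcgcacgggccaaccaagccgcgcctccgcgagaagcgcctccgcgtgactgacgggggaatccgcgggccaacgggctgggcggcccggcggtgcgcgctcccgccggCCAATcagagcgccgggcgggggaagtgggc
RefSeq windows were held for 9 of the 10 members, 13 windows in all, since PHF19, EZH2, JARID2 and BMI1 had 2 start sites each. An E2F match stood in 3 of the 13, those of PHF19, EZH1 and SUZ12 above, and in 2.79% of the 35116 windows of this length in the whole table. It began 152, 115 and 189 bases before the start of PHF19, EZH1 and SUZ12. The EZH2 window above held 4 CCAAT matches and no E2F match in these letters. For PHF19 and EZH2 the window with more of these matches is printed. The other PHF19 window (chr9:120868912-120869161) held 1 CCAAT match and 0 E2F matches. The other EZH2 window (chr7:148883486-148883735) held 0 of either. A CCAAT match stood in 7 of the 13 windows of members, EED, JARID2 and CBX7 included, and in 32% of all windows. The motifs TTTGAA and GGGCGG were also searched on both strands. TTTGAA was in the SUZ12 window only, against 13.3% of all windows, and GGGCGG was in every member window except that of EED, against 42.6%. No match to the E2F or CCAAT motif overlapped a match to another motif. The base composition of the member windows and of all windows was not compared, so the shares above are not matched for it. The motifs were chosen after the values were seen, and a match is a description of the sequence. Whether E2F factors act on these members was not tested.

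PHF19, a Polycomb-like protein whose Tudor domain reads methylated histone H3, was the member with the largest change. Its brightest probe set gave log2 intensities of 11.65, 11.39 and 11.67 on the DMSO arrays and 9.25 and 9.41 on the SAHA arrays. Both SAHA arrays were far below all DMSO arrays. The mean fell from 11.57 ± 0.16 (SD, n = 3) to 9.33 ± 0.11 (SD, n = 2), a 4.73-fold decrease. The log2 difference was -2.24 ± 0.11 (SE; adjusted p = 0.000721), the 11th lowest of 19775 genes. A second probe set, 225533_at, read 10.01, 10.09 and 10.09 in DMSO and 7.40 and 7.24 in SAHA, a difference of -2.75 ± 0.06 (SE). The third, 227211_at, read 10.96, 10.56 and 10.79 in DMSO and 8.89 and 8.60 in SAHA, a difference of -2.02 ± 0.15 (SE). All 3 probe sets were called lower (adjusted p over probe sets 0.00137 to 0.00368). The gene stayed called on leaving out any 1 array, with log2 differences of -2.33 to -2.16 (adjusted p 0.00827 to 0.0198).

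EZH2, the main catalytic subunit in dividing cells, was represented by a single probe set whose name marks shared sequence. It read 10.95, 10.92 and 10.89 in DMSO, against 10.51 and 10.11 in SAHA. Both SAHA arrays were lower than every DMSO array, but they lay further apart from each other than the DMSO arrays did. The mean fell from 10.92 ± 0.03 (SD, n = 3) to 10.31 ± 0.28 (SD, n = 2). The log2 difference was -0.61 ± 0.13 (SE; adjusted p = 0.0246), a 1.52-fold decrease. The call ended without DMSO 1, DMSO 2 or DMSO 3 (adjusted p = 0.0965, 0.102 and 0.0977), at log2 differences of -0.59, -0.60 and -0.62. With 1 array fewer the test is weaker, so for any gene a call can end while the difference hardly changes. The log2 difference was -0.80 without SAHA 1 and -0.41 without SAHA 2.

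EZH1, the paralog that is more prominent in resting and differentiated cells, was lower by a similar amount. Its brightest probe set read 9.56, 9.31 and 9.41 in DMSO and 8.88 and 8.92 in SAHA, with both SAHA arrays below all DMSO arrays. The mean fell from 9.42 ± 0.13 (SD, n = 3) to 8.90 ± 0.03 (SD, n = 2). For EZH1 the log2 difference was -0.53 ± 0.09 (SE; adjusted p = 0.0119), a 1.44-fold decrease. The call ended without DMSO 3, SAHA 1 or SAHA 2 (adjusted p = 0.061, 0.0974 and 0.0759), and with probe sets averaged the difference was -0.35. Of the 5 EZH1 probe sets, 3 were called lower. Besides the brightest, these were 203249_at, at 8.55, 8.52 and 8.46 in DMSO and 8.08 and 8.04 in SAHA, and 239198_at, at 8.31, 7.95 and 8.12 against 7.41 and 7.34. The differences of these probe sets were -0.45 ± 0.04 (SE) and -0.75 ± 0.12 (SE). The dimmer 239197_s_at (-0.10) and 211310_at (0.06) were not called, and the latter read near the lower end of the array at 3.76 to 3.95.

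The contrast between the paralogs EZH1 and EZH2 depended on the probe sets used. With the brightest probe set of each, the change in EZH1 minus the change in EZH2 was 0.08 on the log2 scale, less than the spread of that quantity between the SAHA arrays (SD 0.31, n = 2). A two-sided exact permutation test over the arrays gave p = 0.8, where 0.1 is the smallest p that 3 against 2 arrays allow. With probe sets averaged the contrast was 0.25, at that smallest p (exact permutation p = 0.1), the difference of EZH2 being the more negative. Without SAHA 2 the sign turned to -0.14, and without SAHA 1 it was 0.30. The design cannot reach a p under 0.05, and it cannot show that the paralogs changed alike.

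SUZ12, the scaffold of PRC2, was lower by a smaller amount. Its brightest probe set read 11.46, 11.46 and 11.37 in DMSO, against 11.19 and 11.07 in SAHA. The groups did not overlap, and the gap between them was wider than the range within either group. The mean fell from 11.43 ± 0.05 (SD, n = 3) to 11.13 ± 0.09 (SD, n = 2). For SUZ12 the log2 difference was -0.30 ± 0.06 (SE; adjusted p = 0.0208). The call ended without DMSO 1, DMSO 2, DMSO 3 or SAHA 2 (adjusted p 0.0515 to 0.0824), and with the probe sets averaged the difference was -0.17. The other 2 single-gene probe sets, 1566191_at (-0.06) and 1566190_at (-0.16), were dim, at 3.83 to 4.93 on all arrays, and were not called. A further probe set, listed for both SUZ12 and its pseudogene SUZ12P1, read 8.95, 8.95 and 8.87 in DMSO, against 8.49 and 8.25 in SAHA. Its difference was -0.55 ± 0.09 (SE; adjusted p over probe sets = 0.0198), and signal from the gene and the pseudogene cannot be told apart.

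EED, which holds the complex on methylated H3K27, gave different answers by probe set. The brightest, 209572_s_at, read 11.60, 11.50 and 11.50 in DMSO and 11.51 and 11.46 in SAHA, so the groups overlapped. Its log2 difference was -0.04 ± 0.05 (SE; adjusted p = 0.62), with a 95% interval of -0.18 to 0.10. The second, 210656_at, read 6.99, 6.47 and 6.98 in DMSO and 5.53 and 5.30 in SAHA, with no overlap. Its difference was -1.40 ± 0.20 (SE; adjusted p over probe sets = 0.0149), from a level near the middle of the array. That call ended without DMSO 1, DMSO 3, SAHA 1 or SAHA 2 (adjusted p 0.0654 to 0.0988). With both probe sets averaged EED was called lower at -0.72 (adjusted p = 0.0077). After poly-A centring the brightest probe set was called lower at -0.41 (adjusted p = 0.0036), close to the median gene at -0.40. That centring shifts every gene alike. Even AUTS2, a listed PRC1 gene with the same value on all arrays, was then called lower at -0.37 (limma adjusted p = 0.007). The result for EED therefore depends on the probe set and on the scaling.

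JARID2, an accessory protein of PRC2 that belongs to the Jumonji family but lacks demethylase activity, went the other way without passing the test. Its brightest probe set read 11.00, 10.95 and 10.98 in DMSO, against 11.07 and 11.25 in SAHA. Both SAHA arrays were above all DMSO arrays by a narrow margin. For JARID2 the log2 difference was 0.18 ± 0.07 (SE; adjusted p = 0.12; 95% interval 0.01 to 0.36), and -0.19 after poly-A centring. The second probe set, 203297_s_at, read 9.91, 9.73 and 9.86 in DMSO and 10.28 and 10.31 in SAHA, and was called higher at 0.46 ± 0.07 (SE; adjusted p over probe sets = 0.015). That call ended without DMSO 3, SAHA 1 or SAHA 2 (adjusted p 0.072 to 0.0929). The third, 240674_at, was much dimmer, at 6.03 to 6.26 on all arrays, and was not called (0.08). With its probe sets averaged JARID2 was called higher at 0.24 (adjusted p = 0.0357), and the brightest probe set was called without SAHA 1 (0.27, limma adjusted p = 0.032). It gave 0.09 without SAHA 2 (adjusted p = 0.147), and the only JARID2 probe set whose name does not mark shared sequence gave 0.08.

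Over all 18 single-gene probe sets of the members, 9 were called lower, 1 higher and 8 were not called. The background was 18.1% of the 54613 probe sets called, 9.05% lower and 9.01% higher, and 39.2% had both SAHA arrays outside the DMSO range. Probe sets of 1 gene are repeated readings of that gene and not replicates. EZH1, SUZ12, EED and JARID2 each had probe sets on both sides of the threshold. PHF19 was the only member with more than 1 probe set in which every probe set was called. The count called lower was 4 without DMSO 3 and 5 without SAHA 1 or SAHA 2, and 0 were called higher without DMSO 3 or SAHA 2.

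**Figure D2:**
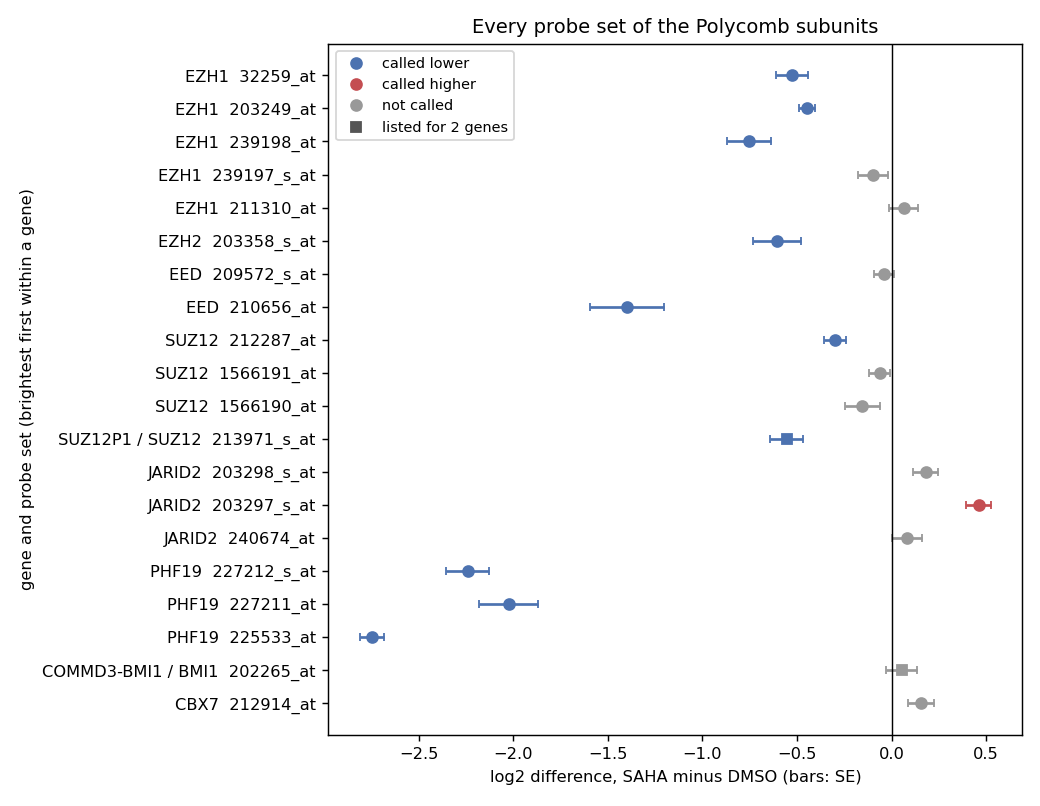
Log2 difference (SAHA minus DMSO; bars, SE) of the 20 probe sets listed for a member, by gene, with squares for the 2 listed for 2 genes. The 3 PHF19 probe sets lie between -2.75 and -2.02, the EED probe sets lie at -0.04 and -1.40, and 1 JARID2 probe set was called higher.

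The only PRC1 member measured by a probe set of its own, CBX7, did not pass the test. CBX7, a chromodomain reader of methylated H3K27, read 8.59, 8.55 and 8.70 in DMSO, against 8.70 and 8.84 in SAHA. The lower SAHA array was level with the highest DMSO array to 2 decimals. The log2 difference was 0.16 ± 0.07 (SE; adjusted p = 0.198; 95% interval -0.03 to 0.34), and -0.22 after poly-A centring. The probe set listed for both COMMD3-BMI1 and BMI1, a ring finger partner of RNF2, read 12.00, 12.00 and 11.95 in DMSO, against 12.16 and 11.92 in SAHA. The groups overlapped, and the difference was 0.05 ± 0.08 (SE; adjusted p over probe sets = 0.693).

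Among the other PRC2 subunits and partners, all 8 listed genes were measured, and 1 was called higher and 2 lower (37.5% called, median log2 difference -0.01, against 29.6% and -0.03 over all genes). PHF19 has 2 Polycomb-like relatives, MTF2 and PHF1. MTF2 read 10.09, 9.96 and 9.94 in DMSO and 10.36 and 10.52 in SAHA and rose by 0.45 ± 0.08 (SE; adjusted p = 0.0143). PHF1 was -0.06 ± 0.04 (SE; adjusted p = 0.38). These stand beside -2.24 for PHF19 on the same arrays, and the differences between the 3 were not tested. The call of MTF2 ended without DMSO 2, DMSO 3 or SAHA 2 (adjusted p 0.0676 to 0.0742). MTF2 gave 0.08 after poly-A centring and 0.27 without shared-sequence probe sets, where it was not called (adjusted p = 0.586 and 0.13). The histone-binding proteins RBBP4 (-0.68 ± 0.14, SE) and RBBP7 (-0.16 ± 0.04, SE) fell. They are also subunits of deacetylase complexes. The call of RBBP7 ended on leaving out any 1 array, and that of RBBP4 with each except SAHA 1. On this list 0 were called higher without DMSO 2, DMSO 3 or SAHA 2, and 0 lower without DMSO 1, DMSO 2, DMSO 3 or SAHA 2 (1 without SAHA 1).

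Other PRC1 subunits moved in both directions. Of 24 listed, 23 were measured, with 5 called higher and 8 lower (56.5% called against 29.6% over all genes, median 0.03). KDM2B, which directs a variant PRC1 to CpG islands, read 9.77, 9.62 and 9.68 in DMSO and 8.63 and 8.45 in SAHA, a fall of 1.15 on the log2 scale (SE 0.08; adjusted p = 0.00118). BCOR, which sits in the same variant complex as KDM2B, read 7.53, 7.31 and 7.38 in DMSO and 8.57 and 8.03 in SAHA, a rise of 0.90 ± 0.18 (SE; adjusted p = 0.0218). PCGF6 (-0.84 ± 0.07, SE) fell and PCGF5 (0.75 ± 0.12, SE) rose, both being ring finger proteins that replace BMI1 in variant PRC1. KDM2B and PCGF6 have no value without shared-sequence probe sets. The call of BCOR ended without DMSO 1, DMSO 2, DMSO 3 or SAHA 1 (adjusted p 0.0556 to 0.101), and with its probe sets averaged it gave 0.54. The call of PCGF5 ended without SAHA 1 (adjusted p = 0.0694).

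Further PRC1 genes were named after their values were seen. L3MBTL2 (-0.54 ± 0.06, SE) and MGA (-0.46 ± 0.05, SE), which belong to the same variant complex as PCGF6, also fell, while E2F6 of that complex was -0.05 ± 0.12 (SE; adjusted p = 0.791). MGA gave -0.14 without shared-sequence probe sets (adjusted p = 0.323). RING1, the paralog of RNF2, read 10.46, 10.48 and 10.56 in DMSO, against 11.05 and 11.13 in SAHA. It rose by 0.59 ± 0.05 (SE; adjusted p = 0.00223) and gave 0.22 after poly-A centring (adjusted p = 0.109). The paralogs RYBP (0.59 ± 0.11, SE) and YAF2 (-0.49 ± 0.10, SE) were called in opposite directions, but neither call held throughout. RYBP lost it without DMSO 1, DMSO 2 or DMSO 3, after poly-A centring (0.21) and without shared-sequence probe sets (0.08, adjusted p = 0.602). YAF2 lost it without DMSO 2, SAHA 1 or SAHA 2 and without shared-sequence probe sets (-0.26). Among chromodomain relatives of CBX7, CBX2 fell (-0.46 ± 0.11, SE) and CBX6 rose (0.36 ± 0.09, SE; -0.01 after poly-A centring). With probe sets averaged CBX2 gave -0.27. Both calls ended on leaving out any 1 array (adjusted p up to 0.128 and 0.138). For the PRC1 list the count called higher was 2 without DMSO 1, DMSO 2 or DMSO 3 and 3 without SAHA 1, and the count called lower was 5 without SAHA 2.

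Enzymes that remove the Polycomb marks were measured for 8 of 9 listed. Of these, 1 was called higher and 3 lower (50% called against 29.6% over all genes, median -0.20). The H2A deubiquitinase MYSM1 (0.80 ± 0.09, SE) rose. The H3K27 demethylase KDM6B (-0.56 ± 0.05, SE), the deubiquitinase cofactor ASXL2 (-0.35 ± 0.06, SE) and the deubiquitinase USP16 (-0.32 ± 0.06, SE) fell. With probe sets averaged MYSM1 gave 0.20, KDM6B -0.14 and USP16 -0.08, and none of the 3 was called (adjusted p = 0.0631, 0.0561 and 0.535). The call of ASXL2 ended without DMSO 2, SAHA 1 or SAHA 2 and that of USP16 without DMSO 2 or DMSO 3. Without DMSO 2 only 1 gene of the list was called lower.

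Trithorax proteins and SWI/SNF remodellers oppose Polycomb repression. Of 19 listed, 18 were measured, with 3 called higher and 7 lower (55.6% called against 29.6% over all genes, median -0.14). The SWI/SNF subunits SMARCC1 (-1.08 ± 0.10, SE), PBRM1 (-0.89 ± 0.14, SE) and SMARCB1 (-0.67 ± 0.05, SE) fell. The H3K4 methyltransferase KMT2C (0.81 ± 0.09, SE) rose. With probe sets averaged SMARCC1 gave -0.66 and SMARCB1 -0.35, and SMARCB1 was not called without shared-sequence probe sets (-0.25, limma adjusted p = 0.303). PBRM1 lost its call without DMSO 1, DMSO 2 or DMSO 3 (adjusted p 0.0531 to 0.0612) and without shared-sequence probe sets (-0.53, limma adjusted p = 0.0761). The count called higher was 1 without DMSO 1, DMSO 3, SAHA 1 or SAHA 2, and the count called lower was 4 without SAHA 1.

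Genes reported as silenced by EZH2 in cancers showed no common direction. Of 14 listed, 11 were measured, with 2 called higher and 2 lower (36.4% called, median -0.13). Over all genes 29.6% were called, 14% higher and 15.6% lower, so this share was near the background. SLIT2, a guidance ligand, was called higher at 0.82 ± 0.08 (SE). CDH1, the epithelial cadherin, was also called higher at 1.64 ± 0.15 (SE), but from 4.67 to 6.31 (group means), below the median gene level of 7.56 in both groups. Its other probe set was not called (-0.10, adjusted p over probe sets = 0.386). On this list 1 gene was called higher without dim genes, and 0 without shared-sequence probe sets, where CDH1 has no value. KLF2, a zinc finger factor, fell by 1.44 (SE 0.09) and CDKN1C, an inhibitor of cyclin-dependent kinases, by 1.24 (SE 0.11) on the log2 scale. Without shared-sequence probe sets KLF2 gave 0.04 (adjusted p = 0.706) and SLIT2 0.30 (adjusted p = 0.173). With probe sets averaged CDH1 gave 0.77, KLF2 -0.70 and CDKN1C -0.41. Without SAHA 2 there were 5 called lower.

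Developmental regulators that Polycomb occupies in stem cells were mostly dim and mostly not called. Of 36 measured (40 listed), 33 were below the median gene level in DMSO. Of the 36, 33 were not called (8.33% called against 29.6% over all genes, median -0.04). The transcription factors WT1 (1.59 ± 0.11, SE; adjusted p = 0.00115) and GATA6 (0.65 ± 0.15, SE; adjusted p = 0.0315) rose, and IRX1 (-0.48 ± 0.08, SE; adjusted p = 0.0113) fell. WT1 and GATA6 were above the median level before treatment. WT1 has no value without shared-sequence probe sets. The call of GATA6 ended without DMSO 1, DMSO 2, DMSO 3 or SAHA 1, its difference was 0.32 with probe sets averaged, and it gave 0.27 after poly-A centring (adjusted p = 0.0546). The call of IRX1 ended without DMSO 2 or SAHA 2. The count called lower was 0 without DMSO 2 and 3 without SAHA 2, and the count called higher was 1 without DMSO 1, DMSO 2, DMSO 3 or SAHA 1.

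**Figure D3:**
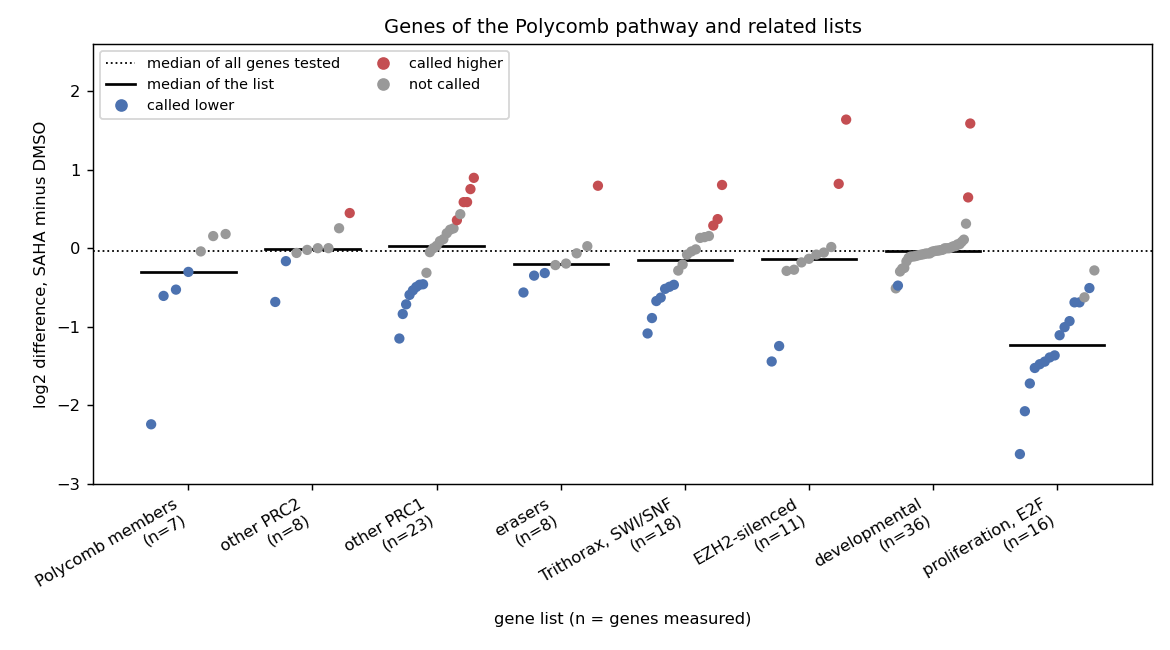
Log2 difference (SAHA minus DMSO) of each measured gene in 8 lists, ordered by value within a list, with the list's median as a bar and the median of all genes (-0.03) as a dotted line. The Polycomb members have a median of -0.30 with PHF19 at -2.24, other PRC1 subunits spread to both sides, and proliferation genes have a median of -1.24.

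The fall of PHF19, EZH2, EZH1 and SUZ12 came with lower levels of proliferation and E2F target genes. Of these, 14 of 16 measured were called lower and 0 higher (87.5% called against 29.6% over all genes, median -1.24). Among the lower were TYMS (-2.62), CCNE2 (-2.07), RRM2 (-1.72) and MCM5 (-1.52). PHF19 at -2.24 lay between TYMS and CCNE2, while EZH2 at -0.61 was closer to zero than that list's median. The E2F factors E2F1 and E2F2, named as members of this list after their values were seen, both gave -0.69, and with probe sets averaged E2F1 gave -0.66 and E2F2 -0.32. After poly-A centring the counts called higher and lower were 0 and 6 for the other PRC2 genes, 2 and 13 for PRC1, 1 and 7 for the erasers and 1 and 12 for Trithorax. They were 2 and 9 for the genes silenced by EZH2, 1 and 32 for the developmental regulators and 0 and 16 for the proliferation list. Of all 19775 genes, that centring called 1361 higher and 14548 lower, so a majority called lower was the background there. The part of reduced proliferation in the change of the Polycomb subunits was not tested.

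**Figure D4:**
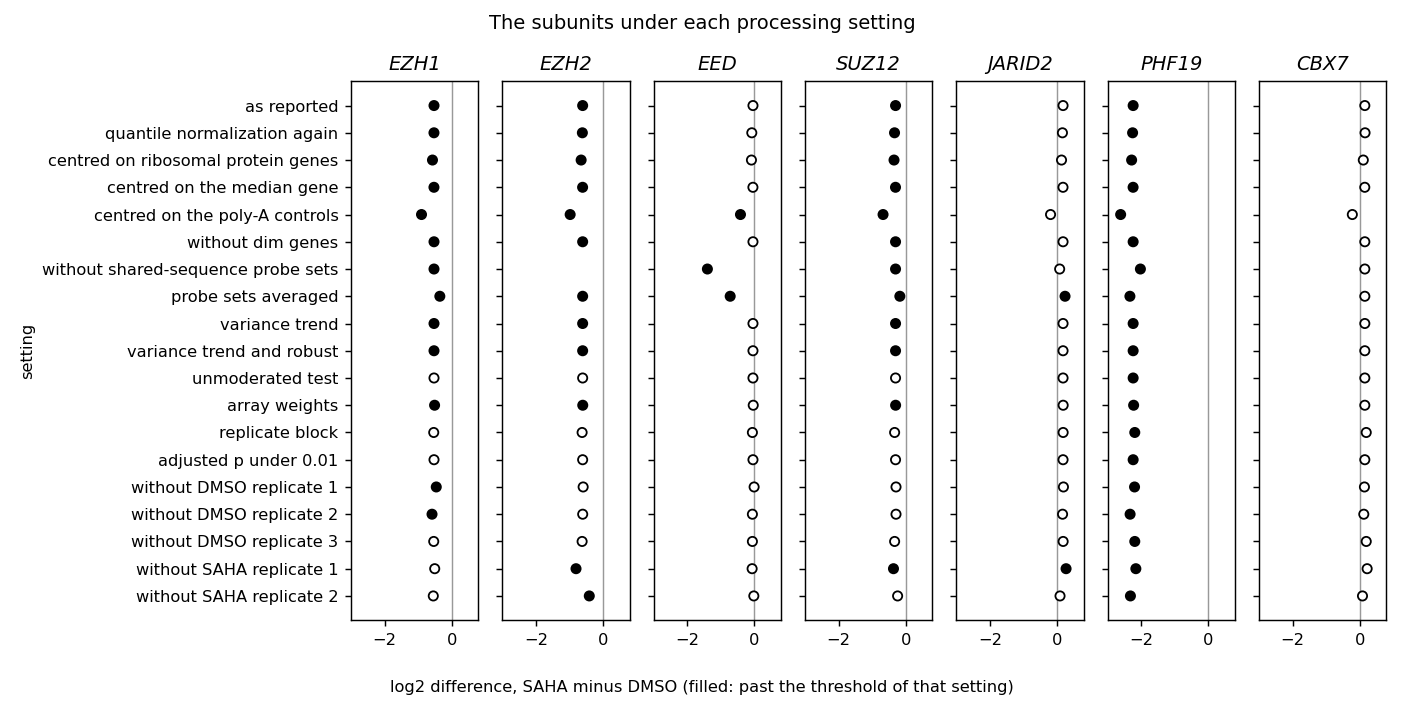
Log2 difference (SAHA minus DMSO) of the 7 measured subunits under the reported setting and each alternative, with filled points where the adjusted p passed the threshold of that setting. PHF19 is filled throughout, between -2.61 and -2.02, while EZH1, EZH2 and SUZ12 keep their sign and lose the call under several settings (EZH2 has no value without shared-sequence probe sets).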

How the data were processed

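Total RNA of 3 DMSO and 2 SAHA arrays was compared. Per the submitters' processing notes, the authors made the values with RMA in R 2.12, which corrects background, normalizes quantiles and summarises probe sets. The deposited values are intensity values on a linear scale for 54675 probe sets, so log2 was taken first. No detection call accompanies a value, and the height of a signal above background is unknown. Of the probe sets, 62 were controls, 41091 had 1 gene, 1801 several and 11721 none in the annotation used. Symbols were updated by gene identifier for 41037.

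The brightest probe set stood for each gene, and a second fit covered all non-control probe sets. Tests were two-sided limma 3.58.1 fits (lmFit and eBayes, run in R 4.3.3). P-values were adjusted by Benjamini-Hochberg over every feature, with a threshold of 0.05 and 3 residual and 1.62 prior degrees of freedom. The script was tested on simulated data. The members and lists were chosen with earlier results of these data known, so no list was tested. Named genes were all members and up to 4 called genes per list with the largest absolute difference; others, such as relatives of a member or subunits of the same complex, were named after their values were seen. The number of arrays limits precision. Promoter windows came from RefSeq (GRCh38.p14), and figures used matplotlib 3.10.9.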

Additional observations from a re-analysis of the deposited data

How the results depend on the processing

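PHF19 stayed called lower in all 18 alternatives (-2.61 to -2.02), and EZH1, EZH2 and SUZ12 stayed below 0 in each alternative that gave them a value. The count called lower was 1 with the unmoderated test, the replicate block or a threshold of 0.01, and 1 to 3 on leaving out 1 array; 0 to 1 were then called higher. It was 5 after poly-A centring and with probe sets averaged, where 1 was called higher. Of the members' probe sets, 4 were called lower and 0 higher with the unmoderated test or the threshold of 0.01. With the replicate block 0 were called in either direction. That fit has fewer residual degrees of freedom than the main fit. DMSO 3 shares its number with no SAHA array and adds nothing to the comparison there. The part of this in the lost calls was not tested. With each array left out 4 to 7 were called lower and 0 to 1 higher. After poly-A centring 15 were called lower and 0 higher, the members' median was -0.67, JARID2 gave -0.19 and CBX7 -0.22. In that setting the median of all genes was -0.40, and 14548 of the 19775 genes were called lower. The share of all probe sets called there is not given here. The median was -0.41 without shared-sequence probe sets, and -0.36 to -0.24 on leaving out 1 array. The setting without shared-sequence probe sets leaves out EZH2 and reads EED from its dimmer probe set, at -1.40 instead of -0.04. The EZH1 minus EZH2 change was -0.14 to 0.30 on leaving out 1 array. It was 0.25 with probe sets averaged and 0.09 with the replicate block. The labels do not say whether the replicate numbers pair the arrays. The r of deviations from the group mean was 0.15 for number 1 and -0.07 for number 2. With 2 SAHA arrays the SAHA deviations mirror each other, so these r values cannot settle the pairing. Of the other recomputed values of single members and related lists, 271 kept their direction and side of the threshold or, for counts, stayed within 1.5 times. Another 80 counts moved further, 19 values lost their call, 5 gained one and 2 reversed. The contrast of CBX7 with CBX8 was not run, since CBX8 was not analysed here. Dim genes cannot be told from background in these values.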
